A study of Mus musculus with 2 samples.

Results

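Mir21a is the mouse gene of miR-21, and it was 1 of 1973 annotated miRNA genes counted in fetal liver. It was chosen by its own measured values, namely its counts on both strands and its share and rank among the miRNA genes, so its levels are given here as a description with no test. MicroRNA sequencing was done on 2 libraries of liver at embryonic day 15.5 from mice of the strain B6NCrl, labelled healthy, with no genetic change or treatment named. Replicate 1 came from a pool of 78 embryos and replicate 2 from a pool of 62, with males and females mixed in each. There was 1 group, so no conditions could be compared, and a pool hides the variation between single embryos.

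A miRNA gene is transcribed as a longer RNA from which a hairpin is cut, and Dicer then releases a short duplex from it. An Argonaute protein usually keeps a single arm of that duplex and is guided by it to messenger RNAs, mostly through the seed near the 5′ end of the arm. miR-21 is found in many cell types and is one of the miRNAs most often raised in human tumours. Its well-studied targets include the tumour suppressor Pdcd4 and the growth-signal inhibitors Spry1 and Spry2. In liver it is studied mainly in regeneration and fibrosis. In human cells the gene has a promoter of its own inside its host gene, with binding sites for AP-1 and STAT3.

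The mature sequences are shown because they decide which reads can be counted for Mir21a and for its relatives. They are from RefSeq on GRCm38.p6, are written 5′ to 3′, and carry the seed (bases 2 to 8) in capitals.
miR-21a-5p: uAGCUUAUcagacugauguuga
miR-21a-3p: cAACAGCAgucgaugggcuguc
miR-21c: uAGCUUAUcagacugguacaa
miR-21b: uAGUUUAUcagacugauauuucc
The 5p arm is the guide arm of miR-21. Counting positions from 1 at the 5′ end, miR-21c keeps the seed of miR-21a-5p and differs from it by A16G, G18A, U19C, U20A and G21A over the length they share. miR-21b has a changed seed, by C4U, and also differs by G18A, G21U and A22C. Of 1738 mature miRNAs in the RefSeq table, 2 carry the seed AGCUUAU, those of Mir21a and Mir21c.

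Mir21a (ENSMUSG00000065455.1) lies on the minus strand of chromosome 11 at 86584067 to 86584158 (mm10, GENCODE M21), a hairpin of 92 bases. The whole hairpin sits in the last exon of Vmp1, on the same strand. Vmp1 encodes an endoplasmic reticulum membrane protein needed for autophagy. The exon is number 12 of 12 in the 1 annotated Vmp1 transcript, of 8, that reaches this far, and all 92 bases fall in its 3′ untranslated region. The hairpin starts after 1149 bases past the stop codon and ends 202 bases before the transcript end. The start of Vmp1 is 99678 bases upstream. The counting used annotation M4 and this placement uses M21, on the same assembly. Fragments of the Vmp1 messenger over these 92 bases would be counted with Mir21a and cannot be told apart from it here.

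**Figure D1:**
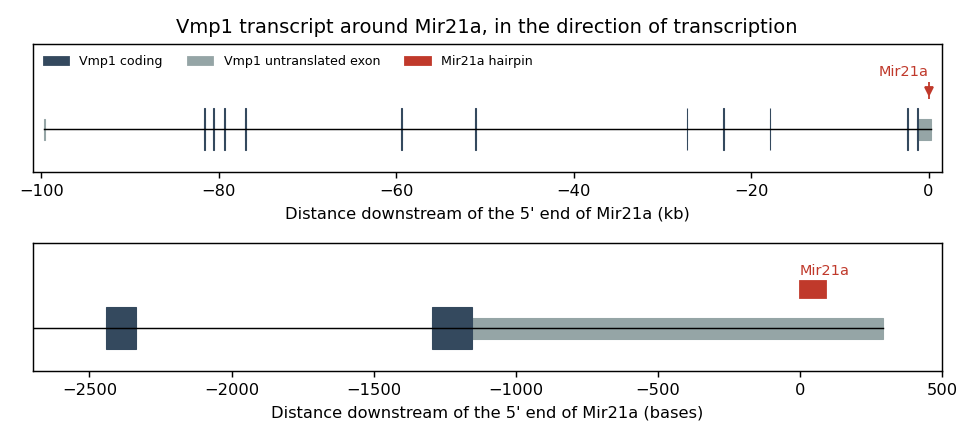
Map of the Vmp1 transcript that contains Mir21a, drawn in the direction of transcription, with distance from the 5′ end of Mir21a on the x axis (kb above, bases below). Coding parts are tall dark boxes, untranslated exon is the lower grey box, and the red box is the hairpin of 92 bases, which lies in the last exon, 202 bases from its end.

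In the hairpin, the 5p arm takes positions 18 to 39 and the 3p arm positions 56 to 77, and both are 22 bases long. The minimum free energy predicted for the fold was -46.2 kcal/mol, with 19 pairs between the arms and all 7 seed bases paired. G and C make up 45.7% of the hairpin and 36.4% of the 5p arm. The deposited counts are per gene, so they do not say how the reads divide between the arms.

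Mir21a was one of the most abundant miRNA genes of the fetal liver. It had 116800 sense reads in replicate 1, which is 2.11% of 5529166 sense miRNA reads (exact 95% interval 2.10 to 2.12). In replicate 2 it had 65484 of 3169882, or 2.07% (2.05 to 2.08). About 1 sense miRNA read in 47.3 was therefore from Mir21a in replicate 1, and 1 in 48.4 in replicate 2. As a share of every sequenced read, unmapped and multiply mapped reads included, it was 0.796% in replicate 1 and 0.775% in replicate 2. Such intervals cover counting error only and not the spread between pools. They may be too narrow even for that, since reads amplified by PCR are not independent molecules.

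Among the 1973 genes Mir21a ranked 9 in replicate 1, at 21124 CPM (counts per 1000000 sense miRNA reads), and 10 in replicate 2, at 20658 CPM. Its mean was 20891 ± 330 CPM (SD, n = 2), which ranked 10. A small RNA is taken to give 1 read whatever the length of its gene, so CPM was not divided by gene length. The genes above it held 44.0% of sense reads in replicate 1 and 46.6% in replicate 2, of which Mir122, the main hepatocyte miRNA, is the largest part. Mir122 reached 182337 CPM in the first library and 168741 CPM in the second, and Mir21a was at 0.116 and 0.122 times those levels. Mir21a was 166 times the median of the 352 detected genes (at least 10 sense reads in both libraries) in replicate 1 and 156 times in replicate 2. It was among 24 genes that held at least 1% of sense reads in both libraries. Reads that mapped to several places, 29.3% of all reads in replicate 1 and 31.1% in replicate 2, were not counted. Genes with identical copies elsewhere may therefore rank too low beside Mir21a.

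**Figure D2:**
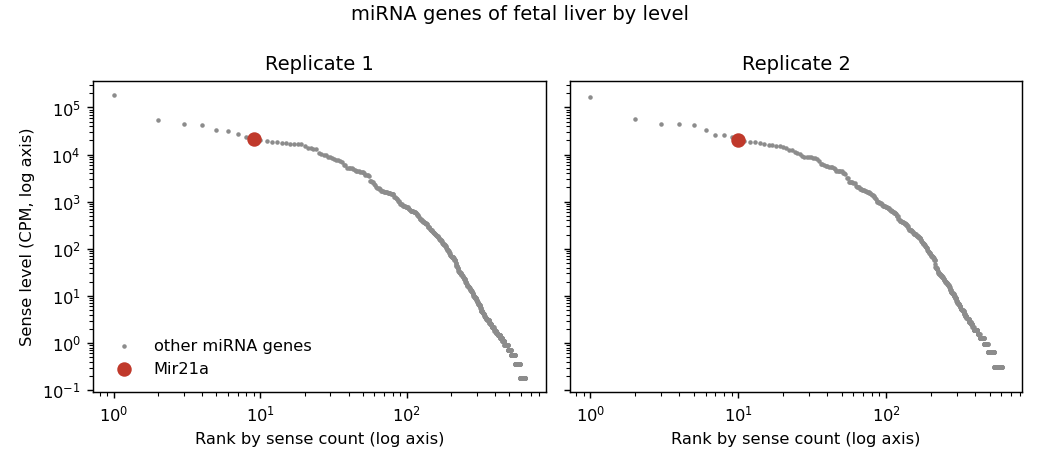
Sense level of each miRNA gene with at least 1 read (y axis, CPM, log scale) against its rank (x axis, log scale), 1 panel per library. Mir21a, the red point, lies at rank 9 in replicate 1 and rank 10 in replicate 2, on the upper shoulder of both curves and below Mir122 at rank 1.

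The order of Mir21a against its 10 neighbours in level was the same in both libraries for all but Mir322. Mir322, of an X-linked cluster linked to growth control and muscle differentiation, had 115267 sense reads in replicate 1 and 76110 in replicate 2. Mir21a was 1.01 times Mir322 in replicate 1 (exact 95% interval 1.005 to 1.02) and 0.860 times in replicate 2 (0.851 to 0.869). The order of this pair thus turned between the libraries, and their mean ± SD ranges overlapped, at 20891 ± 330 CPM for Mir21a and 22429 ± 2237 CPM for Mir322. Against each of the other 9 neighbours the SD ranges did not overlap. Each SD rests on 2 libraries and is imprecise, so the ranges are a description and not a test. Next above Mir322 came Mirlet7i, a let-7 gene, and Mir21a was at 0.901 and 0.778 times its level in replicates 1 and 2. Further up, Mir411 of the imprinted Dlk1-Dio3 domain averaged 26893 ± 753 CPM, Mir17 of the miR-17-92 cluster 32610 ± 1368 CPM, and Mir335 in Mest 37680 ± 5355 CPM.

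Below Mir21a the first gene was Mir223, which marks the granulocyte lineage, with 107680 sense reads in replicate 1 and 57695 in replicate 2. Mir21a was 1.08 times Mir223 in replicate 1 (1.08 to 1.09) and 1.13 times in replicate 2 (1.12 to 1.15). Mir127, an imprinted miRNA antisense to Rtl1, averaged 18479 ± 712 CPM and Mir30e 18411 ± 496 CPM. Mir130a, a miRNA of haematopoietic progenitors, averaged 17155 ± 163 CPM, and Mir487b of the Dlk1-Dio3 domain 17084 ± 445 CPM. The step down from Mir21a to each of these genes was 1.08 to 1.24 times, counted per library. Differences in how well each small RNA ligates to adapters also enter levels of different genes and were not tested.

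**Figure D3:**
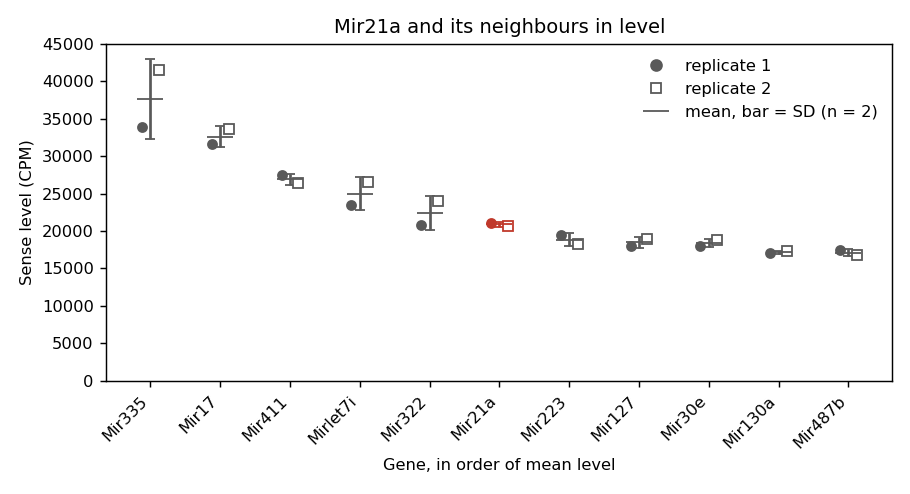
Sense level (y axis, CPM, from 0) of Mir21a in red and of the 5 genes next above and below it by mean level (x axis). Filled circles are replicate 1, open squares replicate 2, and bars the mean ± SD of both. Mir322 is the neighbour whose points lie on both sides of those of Mir21a.

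With 2 libraries, likeness of pattern amounts to likeness of level in each. By distance between log2(CPM + 1) values over the 2 libraries, the nearest detected genes were Mir223 (0.22), Mir322 (0.22), Mir127 (0.26), Mir30e (0.27) and Mirlet7i (0.39). All are among the neighbours in level above, and the measure says nothing further about them.

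Mir21a differed little between the pools. On library sizes scaled by edgeR's TMM, its log2 ratio of replicate 1 over replicate 2 was 0.06 (exact 95% interval for counting error 0.04 to 0.07), a level 1.04 times as high in replicate 1. The raw counts were in a ratio of 1.78, against 1.74 for the library totals. The interval lies above 0, but it holds counting error alone and not the spread between pools. Among the 187 genes that averaged 100 CPM or more, 136 had a larger ratio in either direction than Mir21a, and the median size was 0.12 on the log2 scale. In this set 4 genes, or 2.14%, were at least 1.5-fold apart between the libraries, and Mir21a was not among them. Those genes, named after their values were seen, were Mir451a, Mir203, Mir206 and Gm23935. In CPM by library totals, with no TMM, the SD of Mir21a was 1.58% of its mean. Of the 20 most abundant genes, 18 had a larger relative SD and 1, Mir130a, a smaller one, with a median of 4.34% over the 20. On TMM sizes, the log2 ratios of Mir26b (-0.02), Mir127 (-0.05), Mir30e (-0.03), Mir93 (-0.03) and Mir130a (0.007) were smaller in size than that of Mir21a. The standing of Mir21a among the 20 thus depended on the scaling. An SD of 2 libraries is itself imprecise.

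**Figure D4:**
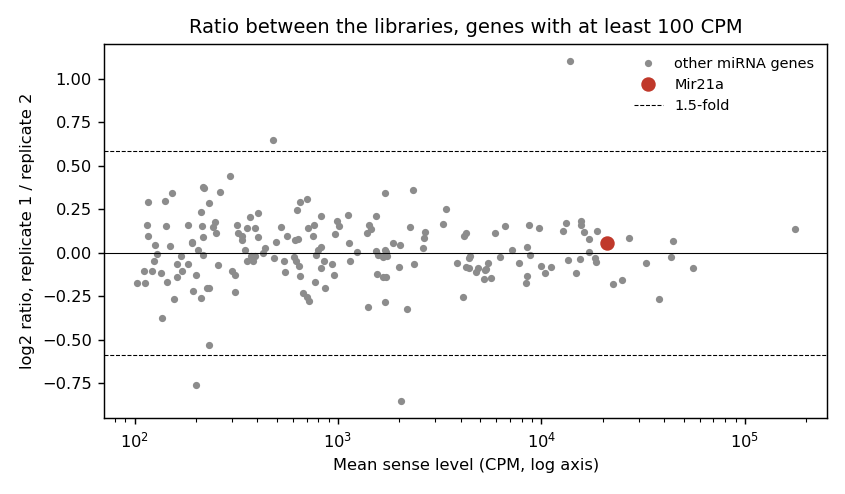
Log2 ratio of replicate 1 over replicate 2 on TMM-scaled sizes (y axis) against mean sense level (x axis, CPM, log scale) for the 187 genes with at least 100 CPM. Dashed lines mark 1.5-fold, and 4 genes lie beyond them, while Mir21a (red) lies close to 0 at 0.06.

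No read was counted on the strand opposite to Mir21a. The opposite-strand count was 0 in replicate 1 and 0 in replicate 2, which allows a share of up to 0.00257% of its reads in replicate 1 and 0.00458% in replicate 2 (3 counts of the total). This was the usual state of an abundant gene. Of 138 genes with at least 1000 sense reads in both libraries, 120 had none on the opposite strand. Of the 20 most abundant genes 15 had none, and Mir126a, the endothelial miRNA of Egfl7, had the most among the others, with 134 and 61 opposite-strand reads in replicates 1 and 2. Over all miRNA genes the opposite strand took 8.77% of counted reads in replicate 1 and 9.12% in replicate 2. The 5 genes with the most such reads in replicate 1 had at most 1 sense read, and Mir142b led them with 193651 opposite-strand reads in replicate 1 and 131496 in replicate 2, more than the reads of Mir21a in each. On that strand, in annotation M21, lies Mir142, a miRNA of blood cells, which was not analysed here as a gene of its own. Gm24321 also had more opposite-strand reads than Mir21a had reads, with 151207 in replicate 1 and 72720 in replicate 2.

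The relatives of Mir21a were not detectable. Mir21c, which shares the seed, had 0 sense reads in replicate 1 and 0 in replicate 2. Mir21b, with the changed seed, likewise had 0 in both. A count of 0 allows up to 0.543 CPM in replicate 1 and 0.946 CPM in replicate 2. Mir590, which shares the seed of miR-21 in human, was not analysed here. A search found the exact 5p and 3p sequences of Mir21a in 1 of 1005 RefSeq hairpins, its own. Among 141767 annotated transcripts the exact 5p sequence was in those of 2 genes, Mir21a and its host Vmp1, and allowing up to 2 mismatches on the transcript strand added no other. The deposited counts hold uniquely mapped reads, so a second copy elsewhere would lower the count of Mir21a. These searches cover annotated hairpins and transcripts and not the rest of the genome.

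Mir21a has no close miRNA neighbour on its chromosome. No other miRNA gene with a matched position, 1894 of the 1973, lies within 500 kb. The nearest, Mir301 at 529 kb, had 3565 sense reads in replicate 1 and 1969 in replicate 2, and the next, Mir5110 at 823 kb, had 0 in both. Of the 20 most abundant genes, 10, Mir21a included, had no annotated miRNA gene within 10 kb on their strand. Of 117 matched miRNA genes on chromosome 11, Mir21a had the most sense reads, with 26.7% of the chromosome's sense reads in replicate 1 and 28.7% in replicate 2, although the reads opposite Mir142b, on this chromosome too, outnumbered it. The nearest protein-coding genes beside Vmp1 are Tubd1, a tubulin, 16707 bases away, and Rps6kb1, a kinase downstream of mTOR, 39262 bases away.

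Mir21a held most of the reads of miRNA genes that lie, as it does, in a 3′ untranslated region. Of 1894 genes matched to the annotation, 30 lay wholly in such a region of a protein-coding transcript on the same strand. Of these 10 were detected, beside 352 of all 1973 genes. Together the 30 held 2.28% of sense reads in replicate 1 and 2.22% in replicate 2. Mir21a made up 92.6% of that in replicate 1 and 92.9% in replicate 2. The next, Mir324 in Dvl2, a Wnt signalling gene, had 8301 sense reads in replicate 1 and 4398 in replicate 2, so that Mir21a was 14.1 and 14.9 times as high. Mir331 in Vezt, an adherens junction gene, averaged 71.5 CPM, and the median of the 10 detected was 24.0 CPM. Genes in other exons, such as those of noncoding RNAs, held 38.5% of reads in replicate 1 and 37.7% in replicate 2. Genes in introns or across an exon boundary held 32.7% and 34.4% of reads in replicates 1 and 2, and those with no annotated gene on their strand held 26.4% and 25.4%.

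The other miRNAs that are usually discussed with miR-21 spanned a wide range. Among those linked to inflammation, 8 were listed, and Mir142 was not analysed here as a gene. Of the other 7, 6 were detected, and by sense reads none of the 7 was above Mir21a in both libraries. Over all 1973 genes 352 were detected, which is the background for the lists below too. The 6 had a median of 97.6 CPM, against 135 CPM over all 352 detected genes. Mir223 stood near Mir21a, as above. Mir146, a brake on Toll-like receptor signalling, averaged 319 ± 20.7 CPM. Mir155, a miRNA of activated leukocytes, averaged 103 ± 10.1 CPM. Mir147, induced in macrophages, had 170 sense reads in replicate 1 and 54 in replicate 2. Mir146b had 1 and 6 sense reads in replicates 1 and 2 and was the 1 not detected. All 7 together held 2.00% of sense reads in replicate 1 and 1.87% in replicate 2, and Mir223 was nearly all of it. With the reads opposite Mir142b counted for Mir142, a choice made after seeing the data, the list held 5.32% and 5.78% in replicates 1 and 2, against 2.04% and 1.98% for Mir21a over the same totals.

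Among the growth and tumour-linked genes, 10 of 10 were detected, with a median of 496 CPM. By counted reads 1 of them, Mir17, was above Mir21a. Mir20a, of the same cluster as Mir17, averaged 14842 ± 1029 CPM and Mir18 5299 ± 323 CPM. Mir221 and Mir222, a pair that targets Kit and the cell cycle inhibitor p27, stood at 349 ± 1.46 and 171 ± 10.7 CPM. Mir210, the hypoxia miRNA, stood at 643 ± 31.5 CPM. This list held 5.63% of sense reads in replicate 1 and 6.05% in replicate 2, of which the Mir17 cluster was most. Mir19b-1 had 88 sense reads in replicate 1 and 59 in replicate 2. Mir19b-1 and Mir92-1 are numbered as genes with further copies, and a read that fits more than 1 copy was not counted. The share and median of the list may therefore be too low.

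By counted reads, the miRNAs linked to fibrosis were low beside Mir21a. Of 8 genes 6 were detected, and these 6 had a median of 109 CPM. All 8 together held 0.187% of sense reads in replicate 1 and 0.205% in replicate 2. Mir21a alone was 11.3 times their sum in replicate 1 and 10.1 times in replicate 2. The highest by counted reads were Mir214, a mesenchymal miRNA, at 866 ± 95.8 CPM and Mir29a, which represses collagen genes, at 851 ± 30.4 CPM. Several of these have near-identical copies, such as Mir199a-1 and Mir199a-2 or Mir29b-1 and Mir29b-2. A read that fits more than 1 copy was not counted, so their levels are uncertain and may be too low. The 11.3 and 10.1 times given for Mir21a over the sum of the list may then be too high.

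**Figure D5:**
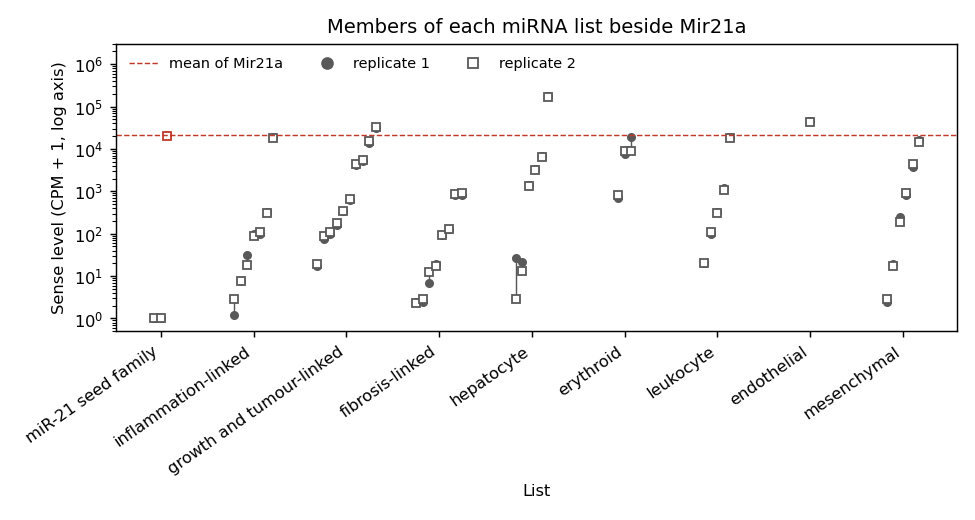
Sense level of each member (y axis, CPM + 1, log scale) of the miRNA lists named on the x axis. Filled circles are replicate 1 and open squares replicate 2, joined by a line, and the dashed red line is the mean of Mir21a at 20891 CPM. By sense reads the members above the line in both libraries are Mir17, Mir122 and Mir126a.

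Cell types could not be told apart in whole liver, where fewer cells of a type and less RNA per cell give the same count. Markers of several cell types are given beside Mir21a, and their shares are of reads and not of cells. Hepatocyte miRNAs held 19.4% of sense reads in replicate 1 and 18.0% in replicate 2, with 5 of 6 genes detected. Mir122 alone held 18.2% and 16.9%. The hepatocyte gene not detected was Mir802, with 140 sense reads in replicate 1 and 6 in replicate 2. Endothelial Mir126a held 4.48% and 4.36%. Erythroid miRNAs held 2.71% and 1.86%, leukocyte miRNAs without Mir142 2.11% and 1.97%, and mesenchymal miRNAs 2.12% and 2.04%. Most of the last 2 shares was from single genes, Mir223 with 1.95% and 1.82% and Mir143 with 1.65% and 1.48%. Reads mapping to several places are in none of these shares, so the share of a list whose genes have copies may be too low. All 3 erythroid, 5 of the 6 listed leukocyte and 5 of 6 mesenchymal genes were detected, beside 352 of all 1973 genes. The remaining leukocyte gene, Mir142, was not analysed here as a gene. With the reads opposite Mir142b counted for it, the leukocyte list held 5.42% in replicate 1 and 5.87% in replicate 2.

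Mir21a was at 0.109 times the sum of the hepatocyte list in replicate 1 and 0.115 times in replicate 2. Against Mir126a it was at 0.471 and 0.474 times, against the leukocyte list without Mir142 1.0003 and 1.05 times, and against the mesenchymal list 0.994 and 1.01 times. The mesenchymal sum is uncertain and may be too low, since reads that fit both Mir199a-1 and Mir199a-2 were not counted. With the reads opposite Mir142b included, Mir21a was at 0.376 times the leukocyte list in replicate 1 and 0.338 times in replicate 2. Against the erythroid list it was at 0.778 times in replicate 1 and 1.11 times in replicate 2. The order with Mir21a thus turned between the libraries for the erythroid and the mesenchymal lists, with the wider swing for the erythroid one. Its member with the largest change was Mir451a, a red cell miRNA, which had 18658 CPM in the first library and 8843 CPM in the second. The other erythroid members went the other way, Mir144 from 7777 to 8918 CPM and Mir486 from 715 to 818 CPM. Mir21a had 21124 and 20658 CPM. Mir486 also had 347 opposite-strand reads in replicate 1 and 203 in replicate 2, which are not in the erythroid sum. Reads mapping to several places are not in it either, so the erythroid sum may be too low. Its order with Mir21a is therefore uncertain. The part of any cell type in the level of Mir21a was not tested.

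Messenger RNAs were not measured, so the sites that miR-21 could pair with are shown as sequence only. The reverse complement of the seed followed by A, ATAAGCTA, was searched on the transcript strand of the longest annotated 3′ untranslated region of each gene. It was found in 442 of 21022 genes, or 2.10%, and the shorter ATAAGCT, which it contains, in 1511, or 7.19%. Of 7 genes searched that are well known as miR-21 targets, 5 held ATAAGCTA. Their sites are given 5′ to 3′ with the match in capitals, from GENCODE M21 transcripts.
Pdcd4: gtgtgggtgttctgATAAGCTA
Reck: ttttacagtttgaaATAAGCTA
Spry1: atgtaagtgcttaaATAAGCTA
Spry2: gagacccacattgcATAAGCTA
Timp3: tttttgagctttcaATAAGCTA
Pdcd4 encodes an inhibitor of translation, Reck and Timp3 encode inhibitors of matrix metalloproteinases, and Spry1 and Spry2 restrain receptor tyrosine kinase signalling. Tgfbr2, a TGF-beta receptor, held the shorter match alone. The region searched for Btg2, which encodes an inhibitor of cell proliferation, held neither, which says only that these letters are not in the annotated sequence. These genes were picked as known targets, so their count is not evidence about the motif, and a match is not a measured site.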

How the data were processed

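Small RNA under 30 nucleotides was sequenced from total RNA of 2 embryo pools, per the labels. The authors deposited raw counts, 1 table per library, which give each annotated miRNA gene its reads on both strands, on the sense strand and on the opposite strand. Counting used mm10 and annotation M4, per the text deposited beside the tables, with aligner, counter and read trimmer not given in the sources used here. Since the tables have no header, the strand of each column was read from the values: the column called sense held 91.2% and 90.9% of gene counts. Unmapped reads were 23.9% and 21.4% of 14666947 and 8454226 reads in replicates 1 and 2, reads mapping to several places 29.3% and 31.1%, and reads outside the genes 5.40% and 6.23%. They entered no total except where every read is named.

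Names and positions came from GENCODE M21 by stable identifier, with 1894 of 1973 matched, 79 of these under another version. CPM divides sense counts by their sum. Intervals are exact Clopper-Pearson, and ratios between libraries use edgeR 4.0.16 TMM sizes (R 4.3.3), with DESeq2 1.42.0 size factors as an alternative. The ratio step was tested on simulated counts with 200 genes changed 2-fold up or down. Those counts held little spread beyond counting error, so they do not stand for the spread between pools. Hairpins were folded with ViennaRNA 2.7.2.

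Mir21a, the lists and the alternatives were chosen with earlier results of these data known. The rule for naming genes took the 3 highest, the 5 next above and below Mir21a, the 5 nearest by distance, miRNA genes within 500 kb, and the lists. Hosts, target sites and neighbouring genes were added later.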

Additional observations from a re-analysis of the deposited data

How the results depend on the processing

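The level and rank of Mir21a depend on what it is counted against. Its mean of 20891 CPM was 19023 CPM over reads on both strands, with either strand setting for its own reads, and 25343 CPM with Mir122 left out of the total. Over detected genes alone it was 20898 CPM. Each library alone gave 20658 and 21124 CPM. The rank of 10 by mean level was 12 with both strands counted together, 9 without Mir122, and 9 to 10 with either library alone. The rank kept its value over detected genes, and with sense reads set over reads on both strands. Reads mapping to several places entered none of these settings, so the rank against genes with copies was not tested. The log2 ratio of replicate 1 over replicate 2 was 0.032 by library totals with no TMM, against 0.06 with TMM, and between 0.05 and 0.07 with DESeq2 size factors, with both strands and with TMM on detected genes. It was above 0 in all 5 settings. The share of genes at least 1.5-fold apart was 2.14% and became 6.94% (20 of 288 genes) with the minimum lowered to 10 CPM. It stayed within 1.5 times of 2.14% under the other scalings and with a minimum of 1000 CPM. The opposite-strand share was 0 in each library alone. With the reads opposite Mir142b counted for Mir142, an alternative chosen after seeing the data, Mir21a over the leukocyte list averaged 0.357, against 1.02, and over the inflammation-linked list 0.363, against 1.08. No paired analysis was possible because the labels give 1 group. With 2 libraries of 1 group, the spread between pools is poorly known, and depth limits Mir21b and Mir21c to an upper bound.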
